A study of Mus musculus with 93 samples.

Results

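The Cyp4a fatty acid hydroxylases are cytochrome P450 enzymes encoded side by side on mouse chromosome 4. Their 6 members here, Cyp4a10, Cyp4a12a, Cyp4a12b, Cyp4a14, Cyp4a31 and Cyp4a32, were selected from the table by their Ensembl identifiers, without use of their values, and are 6 of 53465 genes counted in the liver of 93 male mice. The study compared how 7 inbred strains respond to a Western diet (WD) or a matched control diet (CD) at thermoneutrality (TN). The strains were C57BL/6J, DBA/2J, A/J and 129S1/SvImJ, which are classical laboratory strains, and WSB/EiJ, CAST/EiJ and PWK/PhJ, which derive from wild mice. No transgene or deletion is named for any of them, and all were bred in the study's own facility. All groups used here, CD-TN included, lived at 30°C from 6 wk of age, started their diet at 7 wk and were killed at 24 wk after 17 wk on it and a fast of 4 h. CD gave 10% of its energy as fat, 73% as carbohydrate and 17% as protein, and WD gave 40%, 43% and 17%. The 14 groups held 5 to 8 mice each, with 8 mice per diet for C57BL/6J and 6 per diet for WSB/EiJ. DBA/2J and PWK/PhJ each had 6 on CD and 7 on WD, A/J had 5 on CD and 6 on WD, 129S1/SvImJ had 7 on CD and 6 on WD, and CAST/EiJ had 7 on CD and 8 on WD.

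Cyp4a enzymes add a hydroxyl group to the far (omega) end of fatty acids. Alcohol and aldehyde dehydrogenases then turn the product into a dicarboxylic acid, which is shortened in peroxisomes, so this omega-oxidation runs beside mitochondrial beta-oxidation. In liver, Cyp4a10 and Cyp4a14 are classical targets of the nuclear receptor PPARA, which fatty acids and fibrate drugs activate, whereas Cyp4a12a is known for its higher level in males, in both liver and kidney.

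The 6 genes lay on chromosome 4 of the GRCm38 build within 322557 bases, in the order Cyp4a12a (chr4:115299046-115332815, + strand), Cyp4a12b (chr4:115411624-115439034, + strand), Cyp4a14 (chr4:115486200-115496142, − strand), Cyp4a10 (chr4:115518264-115533649, + strand), Cyp4a31 (chr4:115563649-115579015, + strand) and Cyp4a32 (chr4:115600969-115621602, + strand). All 6 are annotated as protein coding. Cyp4a12b overlaps Gm12837 on the other strand. Cyp4a12a and Cyp4a12b shared 98.5% of their 1527 coding bases. Cyp4a10, Cyp4a31 and Cyp4a32 were 96.0% to 97.2% identical to each other. Cyp4a14 stood alone, with 75.1% to 76.1% identity to each of the other 5. The sequences below show how alike the 5 near copies are, and so where a read can be assigned to a single gene. The first set is the coding stretch around the cysteine that holds the heme iron, spliced across exons of each gene. It was identical in Cyp4a10, Cyp4a31 and Cyp4a32, and likewise in Cyp4a12a and Cyp4a12b, so each of these groups is shown by 1 gene. Capitals mark bases that differ from Cyp4a10, which were 6 of 87 in Cyp4a12a and 14 of 87 in Cyp4a14.
Cyp4a10 coding bases 1324 to 1410, within chr4:115529481-115532579, + strand: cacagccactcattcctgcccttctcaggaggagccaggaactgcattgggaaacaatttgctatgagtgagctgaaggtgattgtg
Cyp4a12a coding bases 1321 to 1407, within chr4:115328965-115331882, + strand: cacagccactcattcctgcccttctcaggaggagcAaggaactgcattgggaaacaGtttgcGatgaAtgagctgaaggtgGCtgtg
Cyp4a14 coding bases 1318 to 1404, within chr4:115487263-115489826, − strand: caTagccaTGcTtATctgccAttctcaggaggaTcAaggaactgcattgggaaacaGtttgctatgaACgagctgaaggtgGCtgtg

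The second set is the 90-base stretch in which the near copies differed most. Capitals mark the positions at which the genes of a set are not all the same. In Cyp4a10, Cyp4a31 and Cyp4a32, 13 of the 77 coding positions that differ between any of the 3 lay in this stretch.
Cyp4a10, chr4:115519630-115519719, + strand: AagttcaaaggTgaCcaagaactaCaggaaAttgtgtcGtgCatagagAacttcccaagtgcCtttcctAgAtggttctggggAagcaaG
Cyp4a31, chr4:115565010-115565099, + strand: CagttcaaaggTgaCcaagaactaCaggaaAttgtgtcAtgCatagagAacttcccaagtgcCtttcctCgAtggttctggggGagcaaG
Cyp4a32, chr4:115602260-115602349, + strand: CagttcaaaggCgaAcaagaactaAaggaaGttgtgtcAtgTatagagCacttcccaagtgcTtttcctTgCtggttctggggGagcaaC

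In Cyp4a12a and Cyp4a12b, 7 of the 23 coding positions that differ lay in 1 such stretch.
Cyp4a12a, chr4:115326659-115326748, + strand: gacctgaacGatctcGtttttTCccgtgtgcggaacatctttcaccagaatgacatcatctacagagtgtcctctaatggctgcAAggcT
Cyp4a12b, chr4:115432912-115433001, + strand: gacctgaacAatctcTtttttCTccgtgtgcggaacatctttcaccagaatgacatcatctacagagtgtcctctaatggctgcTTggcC

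Of all windows of 100 bases in the annotated transcripts of a gene, 35.8% in Cyp4a12a, 36.2% in Cyp4a12b, 18.2% in Cyp4a32, 12.2% in Cyp4a10 and 7.33% in Cyp4a31 also occurred letter for letter in another member. None of the Cyp4a14 windows did. Reads that lie wholly within such windows map to more than 1 place, and STAR leaves them out of its gene counts, so values of the near copies are uncertain as single genes, and sums over copies are given below. All reads were mapped to the C57BL/6J genome, so a strain's own variants at these positions can also move reads between copies or lose them. That effect was not tested.

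The RefSeq promoter set used here holds an entry for Cyp4a32 (chr4:115600688-115600987, + strand, GRCm38.p6), from 250 bases before to 50 after its RefSeq start. That start lies upstream of the annotated gene start given above, chr4:115600969. It is shown because PPARA is known to bind direct repeats of the type called DR1. The letters searched were AGGTCANAGGTCA on both strands. The best match, in capitals, lay on the − strand from 97 to 85 bases before the RefSeq start and had 3 mismatches.
Cyp4a32 promoter: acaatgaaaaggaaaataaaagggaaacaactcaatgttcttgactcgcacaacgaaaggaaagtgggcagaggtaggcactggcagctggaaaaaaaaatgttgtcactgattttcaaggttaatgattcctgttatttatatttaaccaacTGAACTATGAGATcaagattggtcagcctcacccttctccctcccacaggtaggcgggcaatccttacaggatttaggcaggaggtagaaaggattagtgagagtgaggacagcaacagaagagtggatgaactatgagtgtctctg

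Of 32851 mouse promoters of the same length, 24.6% held a match with at most 3 mismatches and 3.86% one with at most 2. TTCNNNGAA, the letters that STAT factors recognise, had no exact match in this window on either strand, and 8.30% of all promoters held one.

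Sequencing gave 40020424 to 49894856 reads on genes per mouse. The 6 members together took 0.0396% to 0.433% of them, with a median of 0.127%. Levels of single genes are CPM (reads per 1e+06 reads on genes) scaled by TMM. Summed marker levels are CPM without the TMM factor, which ranged from 0.810 to 1.27 over the mice. The summed level of 8 hepatocyte markers, such as Alb, was 60885 to 192085 CPM, and none of the 8 was at 0 in every mouse. Markers of kidney tubule, a tissue that also makes Cyp4a enzymes, summed to 0 to 0.292 CPM. In bulk liver, fewer cells of a type and less RNA per cell cannot be told apart. The share of reads that did not map was highest in CAST/EiJ, at 8.93% to 13.9% on CD and 11.7% to 14.8% on WD, against 1.66% to 2.60% in C57BL/6J on CD. C57BL/6J CD replicate 2 stood apart. Its Spearman rho with the median of its group was 0.962, the lowest of the 93 libraries, against 0.982 for the next lowest. In its group it was lowest for all 6 members and for 13 of 14 genes with male-biased expression in liver, and highest for 14 of 17 female-biased ones. Its Ddx3y, a Y-linked gene, was 60.6 CPM against 56.8 to 79.7 CPM in the other 7 mice. In 3 other libraries, 12 of the 14 male-biased genes were at the lowest level of their group. These were PWK/PhJ CD replicate 3, which was also highest for 13 of 17 female-biased genes, PWK/PhJ WD replicate 2 and WSB/EiJ WD replicate 4, and each had the lowest Cyp4a12a and Cyp4a12b of its group. Where leaving out 1 of these 4 libraries changed a call named below, the value without it is given beside it.

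All 6 members were tested, among 19110 genes with enough reads, and all 6 differed in level between the strains on either diet. On CD the limma-voom F test over the 7 strains gave adjusted p-values from 0.000662 (Cyp4a10) to 1.05e-25 (Cyp4a12b), where 93.7% of all genes passed. On WD they ran from 4.20e-09 (Cyp4a31) to 1.14e-21 (Cyp4a12b), where 93.9% passed. The members' share was thus near that of all genes. The order of the strains was not the same for each member.

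**Figure D1:**
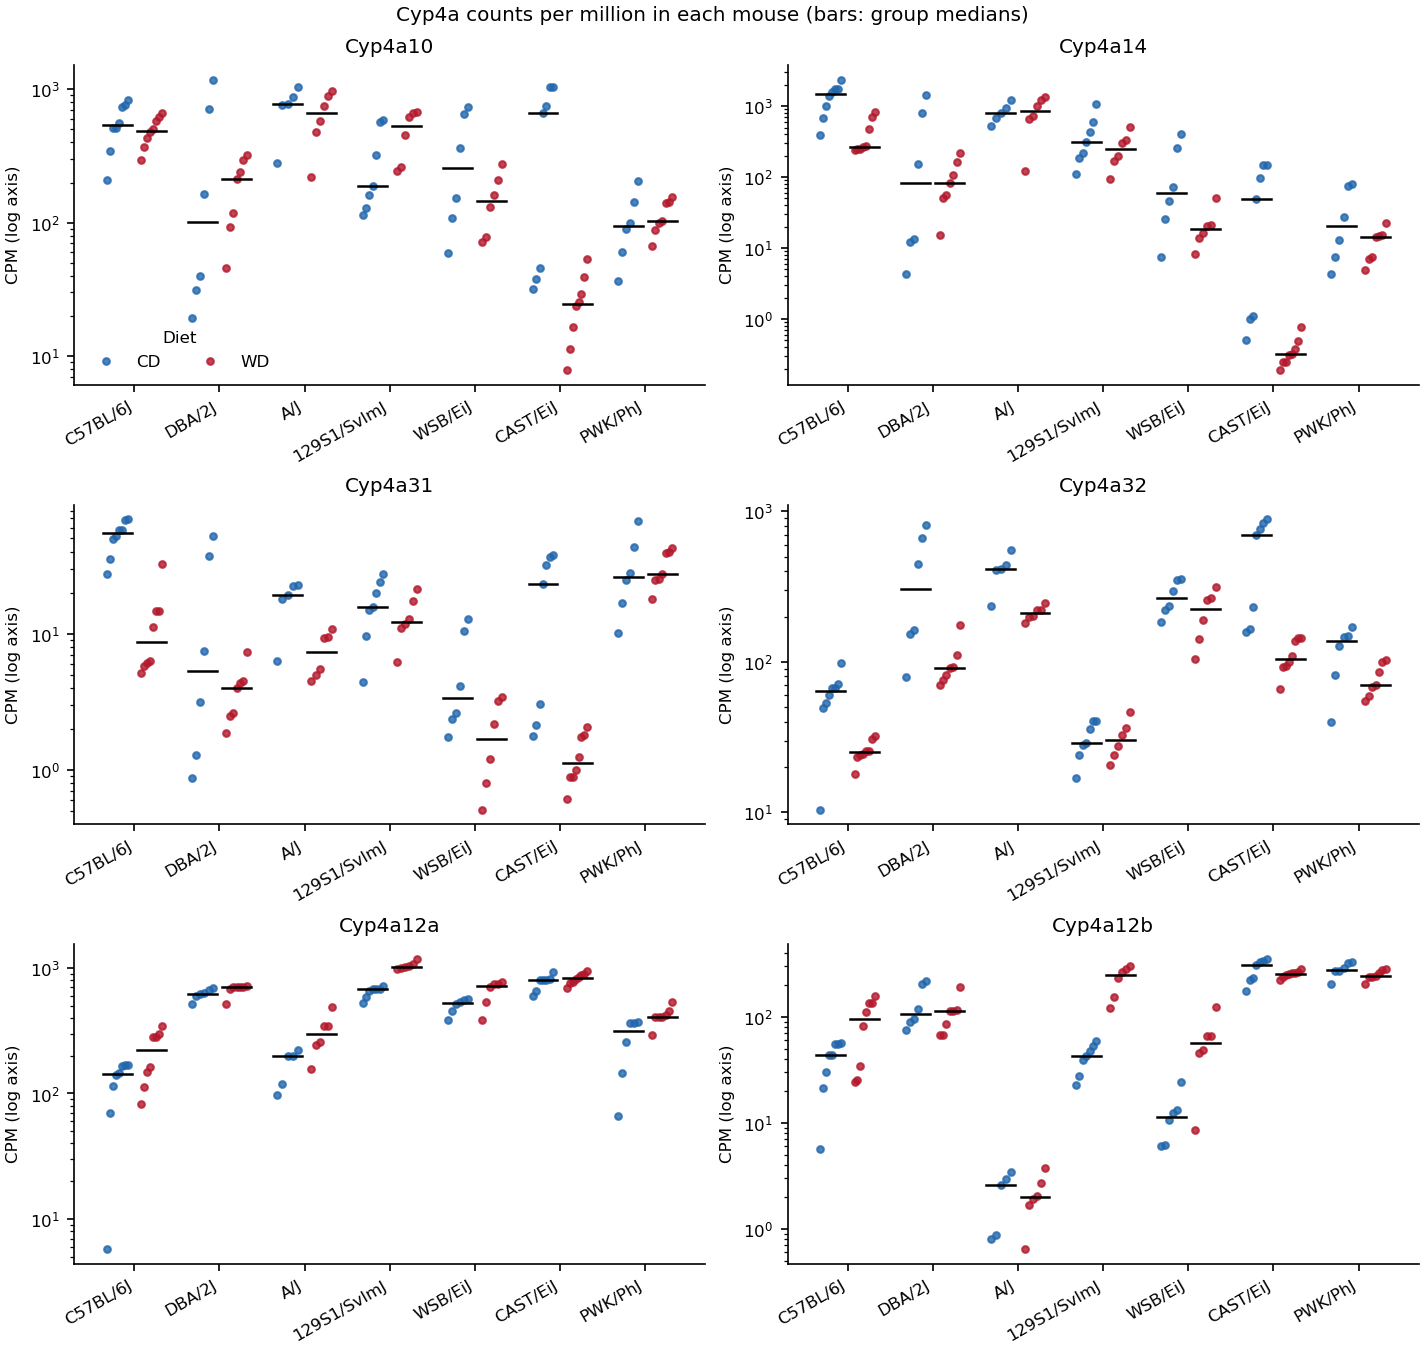
Level of each Cyp4a member in each of the 93 livers (y axis, CPM, log scale) by strain and diet (x axis). Points are mice and horizontal bars are group medians. Cyp4a12b in A/J stayed between 0.646 and 3.76 CPM on both diets, while every PWK/PhJ mouse had at least 204 CPM, and Cyp4a14 in CAST/EiJ on WD did not exceed 0.771 CPM.

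Cyp4a12b had the widest range of group means on CD, 131-fold between the highest and the lowest strain. In A/J the 5 mice on CD had 3.44, 2.98, 0.804, 0.868 and 2.61 CPM. In PWK/PhJ the lowest, median and highest of 6 mice were 204, 280 and 330 CPM. Not one A/J mouse came near the level of any PWK/PhJ mouse. Against the mean of the other 6 strains, limma-voom put the A/J level at a log2 difference of −5.30 (SE 0.72, adjusted p = 2.10e-09) and the PWK/PhJ level at 3.18 (SE 0.33, adjusted p = 3.43e-14). CAST/EiJ came next to PWK/PhJ, at 278 ± 68.4 CPM (SD, n = 7), with overlapping mice, and WSB/EiJ was second lowest at 12.1 ± 6.79 CPM (SD, n = 6). The near copy Cyp4a12a was present in every strain and spanned 6.29-fold on CD, from 123 ± 58.1 CPM in C57BL/6J (SD, n = 8), or 139 ± 36.4 CPM without replicate 2 (SD, n = 7), to 772 ± 108 CPM in CAST/EiJ (SD, n = 7). A/J, where Cyp4a12b was lowest, had 167 ± 54.6 CPM of Cyp4a12a (SD, n = 5).

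Cyp4a14 and Cyp4a10 were ordered differently from the Cyp4a12 genes. Cyp4a14 was highest in C57BL/6J on CD, where the lowest, median and highest of 8 mice were 391, 1477 and 2354 CPM. In PWK/PhJ on CD they were 4.35, 20.2 and 81.2 CPM in 6 mice, so no mouse of the 2 strains overlapped. Set against the mean of all other strains, the log2 difference was 3.87 in C57BL/6J (SE 0.68, adjusted p = 8.59e-07) and −3.00 in PWK/PhJ (SE 0.72, adjusted p = 0.000203). Cyp4a10 spanned 7.04-fold on CD, from 106 ± 61.0 CPM in PWK/PhJ (SD, n = 6) to 746 ± 283 CPM in A/J (SD, n = 5). Cyp4a31 was highest in C57BL/6J, at 52.1 ± 14.8 CPM (SD, n = 8). Cyp4a32 was lowest in 129S1/SvImJ, at 30.6 ± 8.74 CPM (SD, n = 7), with a log2 difference of −2.78 (SE 0.27, adjusted p = 5.77e-15), and highest in CAST/EiJ, at 534 ± 333 CPM (SD, n = 7).

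Set against the mean of the other 6 strains on CD, the levels of 5 of 6 members passed the test in C57BL/6J, where 57.9% of all genes did, 4 in DBA/2J (42.3%), 5 in A/J (36.7%), 3 in 129S1/SvImJ (44.2%), 3 in WSB/EiJ (49.2%), 4 in CAST/EiJ (63.9%) and 5 in PWK/PhJ (58.6%). Without PWK/PhJ CD replicate 3 the last count was 4 (56.1%), since Cyp4a12a did not pass (adjusted p = 0.331). C57BL/6J combined high Cyp4a14, Cyp4a10 and Cyp4a31 with low Cyp4a12a and Cyp4a32. CAST/EiJ had high Cyp4a12a, Cyp4a12b and Cyp4a32 with low Cyp4a14. These levels rest on reads mapped to the C57BL/6J genome, and the share of unmapped reads differed between the strains as given above. Its part in the levels was not tested.

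Levels of different members were compared per kilobase of exon (CPM per kilobase). Cyp4a14 led in C57BL/6J on CD, at 522 ± 246 CPM per kilobase (SD, n = 8), or 575 ± 211 without replicate 2 (SD, n = 7), against 265 ± 101 for Cyp4a10 and 50.7 ± 24.0 for Cyp4a12a. In CAST/EiJ on CD, Cyp4a32 and Cyp4a12a led, at 348 ± 217 and 319 ± 44.8 CPM per kilobase (SD, n = 7). On WD, Cyp4a12a alone made up 64.1 ± 3.00% of the summed family level in CAST/EiJ (SD, n = 8) but 17.0 ± 8.00% in C57BL/6J (SD, n = 8). The annotated model of Cyp4a32 has 1536 exon bases and is almost the coding sequence alone, shorter than the 2109 to 2601 bases of the other 5, so reads of its transcript ends may lie outside it.

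**Figure D2:**
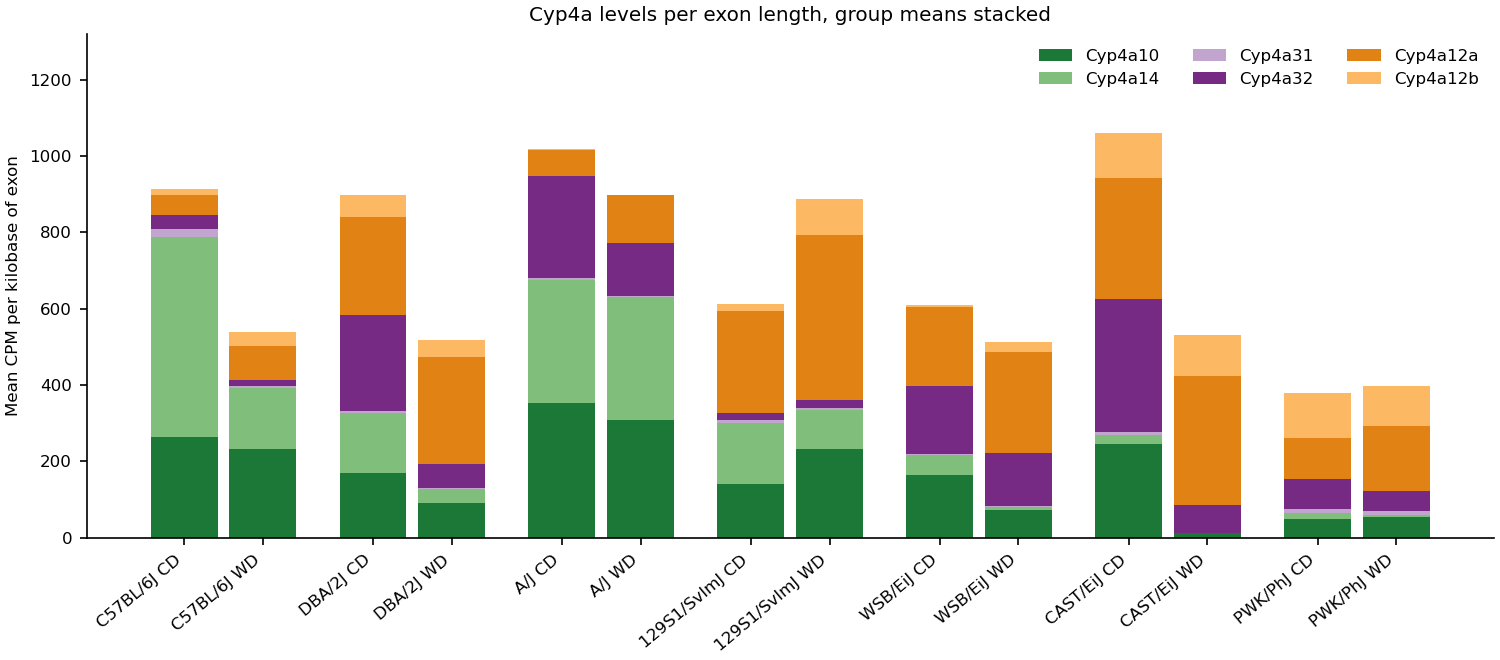
Mean level of each member per kilobase of exon (y axis, CPM per kilobase), stacked for the 14 groups (x axis). Cyp4a14 was the largest share in C57BL/6J on CD, at 522 CPM per kilobase, and Cyp4a12a the largest in CAST/EiJ on WD.

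On WD, members of the family moved in opposite directions, and no member moved in every strain. WD-TN upregulated Cyp4a12b in 129S1/SvImJ and WSB/EiJ and both Cyp4a12 genes in C57BL/6J, where neither passed without CD replicate 2, and it downregulated Cyp4a10, Cyp4a31 and Cyp4a32 in CAST/EiJ, Cyp4a31 and Cyp4a32 in C57BL/6J, and Cyp4a32 in DBA/2J. No member passed the test in A/J or PWK/PhJ. In counts of members with an adjusted p below 0.05 by limma-voom, C57BL/6J had 4 of 6, where 26.2% of all genes passed, or 2 without CD replicate 2 (30.1%), CAST/EiJ had 3 (19.5%), and DBA/2J (18.0%), 129S1/SvImJ (28.0%) and WSB/EiJ (8.94%) had 1 each. Among all genes, 9.03% passed in A/J and 29.6% in PWK/PhJ, the strain with the largest share of changed genes and no changed member.

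**Figure D3:**
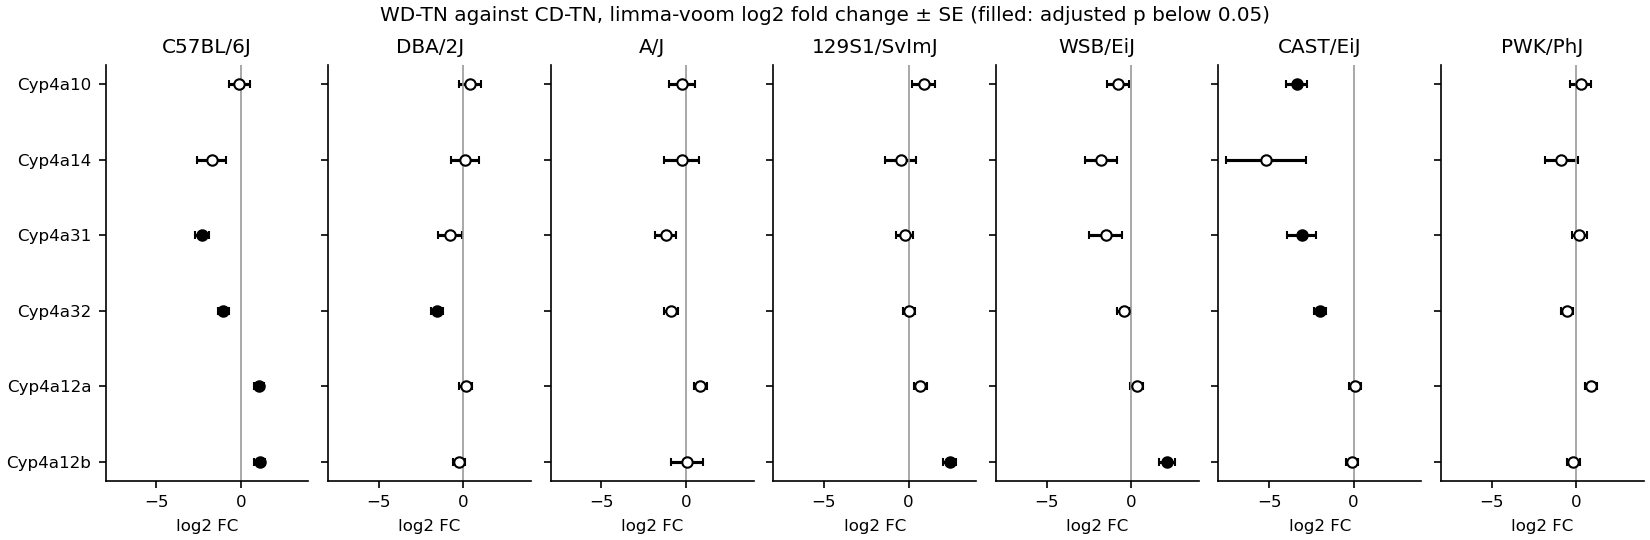
Log2 fold change of each member, WD against CD, in each strain (limma-voom); bars are standard errors, and filled points have an adjusted p below 0.05. The Cyp4a12b increases in 129S1/SvImJ (2.43) and WSB/EiJ (2.13) lie opposite to the decreases of Cyp4a10 (−3.37), Cyp4a31 (−3.07) and Cyp4a32 (−1.98) in CAST/EiJ.

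Cyp4a12b gave the largest increase. In 129S1/SvImJ the lowest, median and highest levels were 22.8, 42.9 and 59.6 CPM in 7 mice on CD and 122, 249 and 302 CPM in 6 mice on WD. All 6 mice on WD lay above all 7 on CD. The log2 fold change was 2.43 (SE 0.38, adjusted p = 6.44e-07), a 5.41-fold ratio of means, and it was 2.18 and 2.71 within the 2 cohorts of the strain. In the same mice, Cyp4a12a was at 525, 675 and 722 CPM on CD and 987, 1023 and 1181 CPM on WD. These ranges did not overlap either, yet in the fit over all genes, which shares 1 estimate of the spread between the strains, the log2 fold change of 0.70 (SE 0.39) did not pass (adjusted p = 0.174). It passed with DESeq2, with sample quality weights, in a fit of this strain alone and with all genes of any count, at adjusted p-values down to 2.96e-06.

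In WSB/EiJ, Cyp4a12b was at 6.02, 11.4 and 24.5 CPM (lowest, median and highest of 6 mice) on CD and at 8.65, 57.2 and 125 CPM in 6 mice on WD. Of the mice on WD, 5 of 6 lay above all mice on CD. The log2 fold change was 2.13 (SE 0.45, adjusted p = 0.000493), with 1.59 and 3.16 in the 2 cohorts. The lowest mouse on WD was replicate 4, and without it the log2 fold change was 2.61 (SE 0.42, adjusted p = 3.50e-06). Cyp4a12a in this strain went from 501 ± 69.8 to 646 ± 154 CPM (SD, n = 6 and 6), which did not pass (adjusted p = 0.690).

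In C57BL/6J, Cyp4a12a was at 5.78, 144 and 170 CPM on CD and 82.3, 221 and 342 CPM on WD (8 mice each). Cyp4a12b was at 5.73, 43.9 and 56.6 CPM on CD and 24.4, 96.2 and 158 CPM on WD. The lowest CD value of both genes belonged to replicate 2, the library that stood apart, and the diets overlapped for both. Both genes rose, with log2 fold changes of 1.07 (SE 0.32, adjusted p = 0.00666) and 1.11 (SE 0.34, adjusted p = 0.00855). Without that replicate they were 0.52 (adjusted p = 0.0645) and 0.75 (adjusted p = 0.0583), and neither passed. In CAST/EiJ and DBA/2J neither Cyp4a12 gene passed, with log2 fold changes of −0.27 to 0.12 and adjusted p-values of at least 0.702. In PWK/PhJ, Cyp4a12a was at 66.2, 312 and 368 CPM on CD (6 mice) and 293, 409 and 535 CPM on WD (7 mice). Of the mice on WD, 6 of 7 lay above all on CD, and the log2 fold change of 0.89 (SE 0.36) had an adjusted p of 0.0555. The lowest mice were CD replicate 3 and WD replicate 2, both low for the male-biased genes. Without the former the log2 fold change was 0.54 (adjusted p = 0.280), and without the latter it was 0.97 (adjusted p = 0.0504). In A/J, 5 of 6 mice on WD lay above all 5 on CD for Cyp4a12a, with a log2 fold change of 0.85 (SE 0.39, adjusted p = 0.164).

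The decreases of the largest fold change were in CAST/EiJ. Cyp4a10 was at 31.9, 662 and 1048 CPM in 7 mice on CD and at 7.85, 24.6 and 53.8 CPM in 8 mice on WD. Of the mice on WD, 6 of 8 lay below all mice on CD. Cyp4a10 fell by 3.37 on the log2 scale (SE 0.62, adjusted p = 2.78e-05). Cyp4a32 was at 158, 698 and 886 CPM on CD and 66.4, 104 and 143 CPM on WD, with all 8 mice on WD below all 7 on CD, and it fell by 1.98 (SE 0.34, adjusted p = 9.41e-06). Cyp4a31 was at 1.76, 23.2 and 37.5 CPM on CD and 0.616, 1.13 and 2.08 CPM on WD, with 6 of 8 mice on WD below all on CD, and it fell by 3.07 (SE 0.86, adjusted p = 0.00595). Of all genes, 9.73% were lower on WD in this strain, against 3 of the 6 members.

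Cyp4a14 had the largest fold change in CAST/EiJ and did not pass. On CD it was at 0.505, 48.4 and 150 CPM in 7 mice. On WD it was at 0.191, 0.316 and 0.771 CPM in 8 mice. Of the mice on WD, 7 of 8 lay below all mice on CD, and the group means were 64.1 ± 68.5 and 0.369 ± 0.186 CPM (SD). The limma-voom log2 fold change was −5.16 (SE 2.37, adjusted p = 0.117), while edgeR's quasi-likelihood test and DESeq2 both called it, at adjusted p-values down to 1.09e-22. Of 9 alternative settings, the 7 others, all by limma-voom, did not call it, at adjusted p-values up to 0.568.

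The CAST/EiJ mice on CD were widely spread, and their values are given by cohort, a number that the labels give each mouse. Cyp4a10 was at 31.9 CPM in the single mouse of cohort 1, at 45.5 and 662 CPM in cohort 3, and at 38.1, 749, 1048 and 1033 CPM in cohort 4. Cyp4a14 was at 1.00 CPM in cohort 1, at 0.505 and 48.4 CPM in cohort 3, and at 1.09, 97.4, 150 and 150 CPM in cohort 4, in the same order of mice. Low values thus occurred in every cohort. Pdk4, a PPARA target that limits glucose oxidation, was at 3.6 CPM in cohort 1, at 3.87 and 357 CPM in cohort 3, and at 8.92, 882, 504 and 534 CPM in cohort 4. The same mice were low for Pdk4 and for the members. The log2 difference of Cyp4a10 between the diets was −0.89 in cohort 1, which had 1 mouse on CD and 3 on WD, −3.26 in cohort 3 and −3.71 in cohort 4. For Cyp4a32 these differences were −0.80, −1.47 and −2.41.

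**Figure D4:**
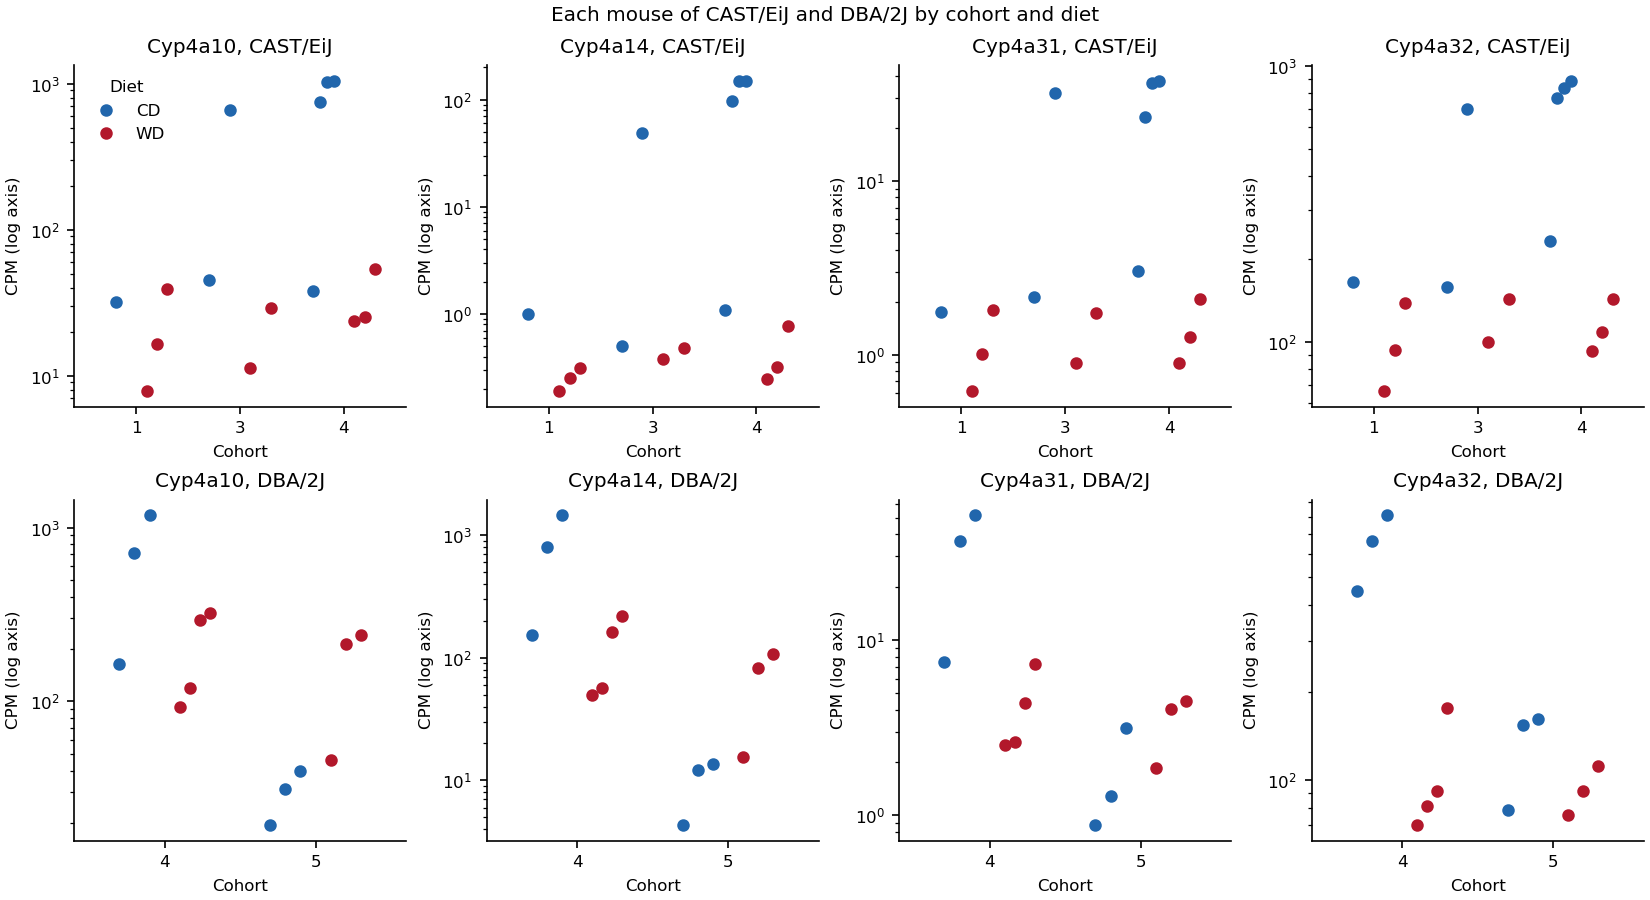
Level of Cyp4a members (y axis, CPM, log scale) in each mouse of DBA/2J and CAST/EiJ by diet and cohort (x axis); points are mice. In DBA/2J, Cyp4a10 on CD was at 163 to 1180 CPM in cohort 4 and at 19.4 to 39.7 CPM in cohort 5.

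In C57BL/6J, Cyp4a31 was at 27.2, 54.9 and 69.0 CPM on CD and 5.18, 8.75 and 32.2 CPM on WD (8 mice each). Of the mice on WD, 7 of 8 lay below all mice on CD, and it fell by 2.31 (SE 0.44, adjusted p = 2.17e-05). Cyp4a32 was at 10.4, 63.7 and 98.4 CPM on CD and 18.1, 25 and 32 CPM on WD, with the lowest CD value again in replicate 2, and it fell by 1.05 (SE 0.32, adjusted p = 0.0100). Both calls held when any mouse was left out. Of all genes, 11.9% were lower on WD in C57BL/6J, against 2 of the 6 members. Cyp4a14 went from 1358 ± 641 to 411 ± 236 CPM (SD), with 5 of 8 mice on WD below all on CD, and its log2 fold change of −1.72 (SE 0.85) did not pass (adjusted p = 0.128). It passed with DESeq2, with all genes of any count, in a fit of C57BL/6J alone and with sample quality weights. Cyp4a10 was at 559 ± 214 and 493 ± 126 CPM (adjusted p = 0.927).

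In DBA/2J, Cyp4a32 was at 79.1, 304 and 814 CPM on CD (6 mice) and 69.8, 91.6 and 177 CPM on WD (7 mice), so the diets overlapped, and it fell by 1.55 (SE 0.37, adjusted p = 0.00108). The cohorts of this strain differed. On CD, Cyp4a10 was at 163, 716 and 1180 CPM in the mice of cohort 4 and at 31.3, 19.4 and 39.7 CPM in those of cohort 5, with no overlap. The log2 difference between the diets was −1.52 for Cyp4a10 and −2.49 for Cyp4a14 in cohort 4, but 2.20 and 2.52 in cohort 5. Over both cohorts, neither gene passed (adjusted p = 0.768 and 0.970). For Cyp4a32 the differences were −2.67 in cohort 4 and −0.45 in cohort 5, in the same direction but unequal in size. With cohort within strain as a covariate, no call of any member in any strain changed.

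Cyp4a32 in A/J was at 554, 439, 234, 411 and 408 CPM in the 5 mice on CD and at 182, 211 and 247 CPM (lowest, median and highest of 6) on WD. Of the mice on WD, 5 of 6 lay below all on CD, but the log2 fold change of −0.90 (SE 0.41) did not pass (adjusted p = 0.161). In 129S1/SvImJ, Cyp4a32 was at 30.6 ± 8.74 and 31.2 ± 9.28 CPM (SD, n = 7 and 6; adjusted p = 0.963). In WSB/EiJ, Cyp4a10, Cyp4a14, Cyp4a31 and Cyp4a32 had log2 fold changes of −0.78, −1.78, −1.51 and −0.42, none of which passed (adjusted p = 0.562, 0.259, 0.406 and 0.585).

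Whether the diet effect differed between strains was tested itself. It differed for 4 of 6 members, where 37.5% of all genes passed the F test over the 7 strains. Adjusted p-values by limma-voom were 1.55e-05 for Cyp4a12b, 0.000822 for Cyp4a31, 0.00246 for Cyp4a10 and 0.00957 for Cyp4a32. Cyp4a14 and Cyp4a12a did not pass, at 0.188 and 0.393. Set against the mean of the other 6 strains, the effect on Cyp4a12b in 129S1/SvImJ was higher by a log2 value of 1.97 (SE 0.44, adjusted p = 0.00271), where 6.28% of all genes differed. In CAST/EiJ, 2 members had lower effects than the other strains, Cyp4a10 by a log2 value of −3.44 (SE 0.68, adjusted p = 0.000175) and Cyp4a32 by −1.24 (SE 0.37, adjusted p = 0.0157), where 14.5% of all genes differed. In PWK/PhJ the effect on Cyp4a31, which was at 31.7 ± 20.8 CPM on CD and 30.9 ± 9.29 CPM on WD (SD, n = 6 and 7), was higher by 1.69 (SE 0.53, adjusted p = 0.0187), where 16.3% of all genes differed. For Cyp4a12b in WSB/EiJ the difference from the other strains was 1.62 (SE 0.50), which did not pass (adjusted p = 0.0922). Without WSB/EiJ WD replicate 4 it was 2.10 and passed (SE 0.46, adjusted p = 0.00605).

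Sums over the near copies do not depend on how the counted reads were split between them. They still lack reads that were left out because they map to more than 1 place. Cyp4a12a and Cyp4a12b counted together rose in C57BL/6J, with a log2 fold change of 1.07 (SE 0.28, adjusted p = 0.00216), and in 129S1/SvImJ, with 0.89 (SE 0.34, adjusted p = 0.0406). Without CD replicate 2 the value in C57BL/6J was 0.59 (SE 0.20, adjusted p = 0.0183). In WSB/EiJ, where Cyp4a12a was much the more abundant of the pair, the sum gave 0.42 (SE 0.34, adjusted p = 0.522). The sum of Cyp4a10, Cyp4a31 and Cyp4a32 fell in CAST/EiJ by 2.43 (SE 0.42, adjusted p = 1.00e-05) and passed in no other strain. Its diet effect differed between strains (adjusted p = 0.00245). In CAST/EiJ this effect was lower than in the other strains by a log2 value of −2.20 (SE 0.46, adjusted p = 0.000448). In 129S1/SvImJ it was higher than in the other strains, by 1.53 (SE 0.50, adjusted p = 0.0479). In the fit of single genes, 14.5% of all genes differed in CAST/EiJ and 6.28% in 129S1/SvImJ. For the Cyp4a12 pair the diet effect was not shown to differ (adjusted p = 0.203). All 6 members counted as 1 gene fell in C57BL/6J, by 0.71 (SE 0.27, adjusted p = 0.0437), or by 0.93 without CD replicate 2 (adjusted p = 0.00480), and in CAST/EiJ had a log2 fold change of −0.71 (SE 0.28, adjusted p = 0.0596).

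The members fell into a pair and a group of 4 by how they varied between mice of the same group. Over the deviations of the 93 mice from their group means in log2 CPM, Pearson's r was 0.75 to 0.92 for every pair among Cyp4a10, Cyp4a14, Cyp4a31 and Cyp4a32, the highest being Cyp4a10 with Cyp4a14 (rho 0.85). It was 0.72 for Cyp4a12a with Cyp4a12b. Between the pair and the 4 it was 0.14 to 0.51, and the highest of these, Cyp4a12a with Cyp4a32, was 0.29 without the 2 mice farthest from the median. Near copies share sequence, and all points share library depth. Cyp4a14 shares no 100-base window with the others, and its r with Cyp4a10 was 0.92. The part of shared sequence and of depth in these values was not tested. Over the 14 group means the grouping was looser. Cyp4a10 with Cyp4a14 had r of 0.93, Cyp4a12a with Cyp4a12b 0.46, and Cyp4a31 with Cyp4a32 −0.30, so these last 2 genes varied together from mouse to mouse but not from strain to strain.

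**Figure D5:**
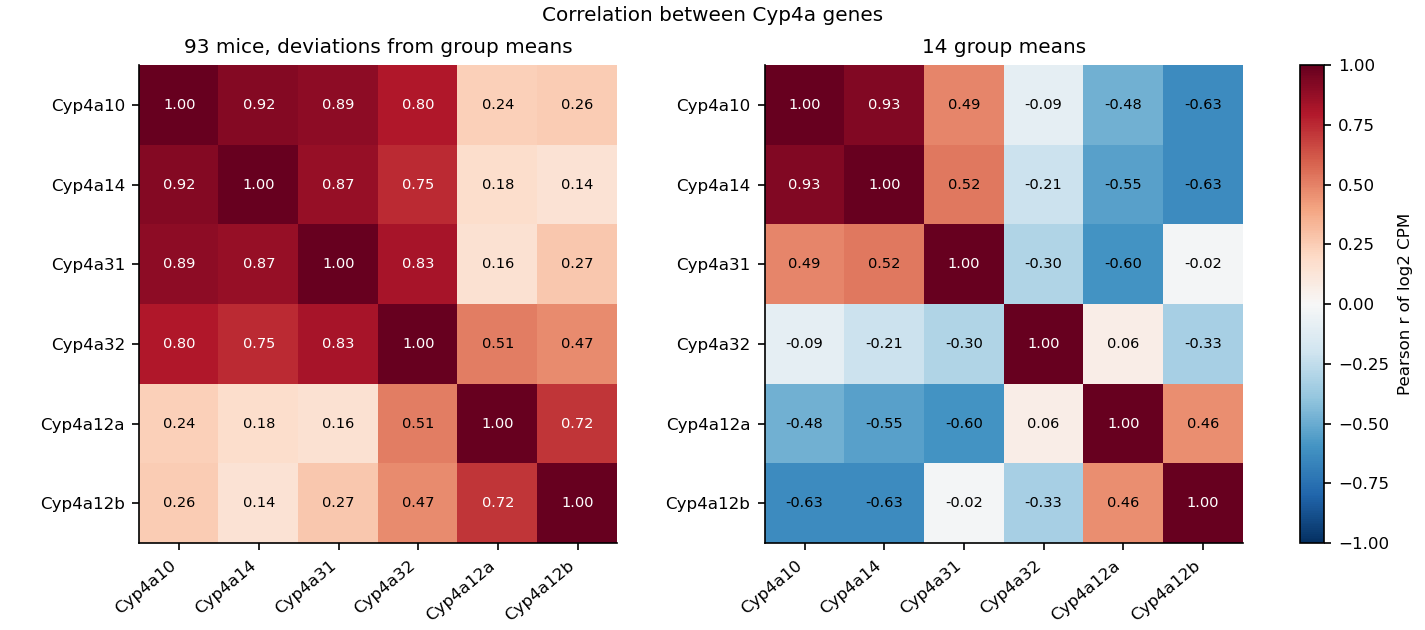
Pearson's r for all 15 pairs of members, over the deviations of 93 mice from their group means and over the 14 group means of log2 CPM. Pairs among Cyp4a10, Cyp4a14, Cyp4a31 and Cyp4a32 lie at 0.75 to 0.92 within groups and at −0.30 to 0.93 over group means.

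The genes most like each member were found by Pearson's r of log2 CPM. Within groups, for Cyp4a10 they were Acot1, an acyl-CoA thioesterase (r = 0.90), Hsdl2 (0.85) and Ehhadh, the peroxisomal bifunctional enzyme (0.84). Acot1 (0.91), Acot2 (0.90) and Crat, carnitine acetyltransferase (0.88), were closest to Cyp4a14, and Hsdl2 (0.88), Acot2 (0.87) and Acot1 (0.85) to Cyp4a31. For Cyp4a32 they were Slc25a42, a mitochondrial carrier of coenzyme A (0.86), Zfand6 (0.86) and Slc22a5, a carnitine transporter (0.85). The genes closest to Cyp4a12a were Elovl3, a fatty acid elongase (0.84), Cyp2d9 (0.83) and Mup3, a major urinary protein (0.83). To Cyp4a12b they were Mup14 (0.75), Cyp7b1, an oxysterol hydroxylase (0.67), and Ugt2b38 (0.67). These values include C57BL/6J CD replicate 2, where Cyp4a12a was at 5.78 CPM against 69.5 to 170 CPM in the other mice of its group. Elovl3 was at 1.55 CPM against 70.5 to 491 CPM, and Mup3 at 49.7 CPM against 1647 to 8551 CPM. The part of this mouse in the r values was not tested. Over the 14 group means, other genes came first, among them Acot2 for Cyp4a10 (0.93), Plcxd2 for Cyp4a12a (0.91), Scarf1 for Cyp4a12b (0.90), S100a13 for Cyp4a14 (0.92), Fgf21 for Cyp4a31 (0.87) and Bace1 for Cyp4a32 (0.90). Of 30 PPARA targets, 27 had r above 0.50 within groups with each of Cyp4a10, Cyp4a14, Cyp4a31 and Cyp4a32, where 2.53% to 3.86% of all genes did. The counts were 10 with Cyp4a12a (3.38% of all genes) and 3 with Cyp4a12b (0.942%).

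In CAST/EiJ, where 3 members fell, 17 of 30 PPARA targets fell on WD and 0 rose, where 9.73% of all genes were lower and 9.77% higher, with a median log2 fold change of −0.46, against 0.02 over all genes. The diet effect in CAST/EiJ was lower than the mean of the other 6 strains for 15 of the 30 targets and higher for 0. Pdk4 fell by 3.26 (adjusted p = 0.000500), Fgf21, a fasting hormone of liver, by 2.16 (adjusted p = 0.0178) and Acot1 by 1.70 (adjusted p = 0.0161). Ehhadh had a log2 fold change of −0.52 (adjusted p = 0.242). The falls did not hold against every CD mouse. On WD, Pdk4 was at 4.19 to 12.98 CPM, Acot1 at 18.8 to 51.4 CPM and Ehhadh at 563 to 994 CPM. CD replicates 1, 2 and 4, the mice low for Pdk4 above, had Acot1 at 27.8, 13.6 and 10.2 CPM. Their Ehhadh was at 478, 304 and 296 CPM, below all mice on WD. The other CD mice had Acot1 at 226 to 400 CPM and Ehhadh at 1540 to 2709 CPM. Among PPARA and 6 partners, 3 of 7 fell in CAST/EiJ, led by the coactivator Ppargc1a, by 1.11 (adjusted p = 9.07e-05), and Ppara itself had −0.39 (adjusted p = 0.236).

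In the other strains, Cyp4a10 and Cyp4a14 did not pass. On WD, C57BL/6J had 5 of the 30 targets higher and 3 lower, where 14.3% of all genes were higher and 11.9% lower, and without CD replicate 2 the counts were 4 and 6. PWK/PhJ had 4 higher and 1 lower (15.1% and 14.5% of all genes). Without its CD replicate 3 the counts were 3 and 2, where 29.3% of all genes passed in either direction. DBA/2J (10.2% and 7.77%) and 129S1/SvImJ (14.5% and 13.6%) each had 6 higher and 0 lower. A/J had 1 of each (4.39% and 4.64%), and WSB/EiJ had 1 higher and 0 lower (4.97% and 3.97%). The medians of these 6 strains were −0.08 to 0.08. Cd36, a fatty acid transporter, rose in 6 strains, CAST/EiJ not among them, by log2 values of 0.73 in WSB/EiJ, where it did not pass without WD replicate 4 (0.68, adjusted p = 0.0772), to 2.81 in A/J. Vnn1, a pantetheinase, rose by 1.64 in C57BL/6J, 1.52 in DBA/2J, 1.90 in 129S1/SvImJ and 1.62 in PWK/PhJ. Fgf21 fell by 2.08 in C57BL/6J and by 1.95 in A/J, and Pdk4 fell by 1.78 in C57BL/6J (adjusted p = 0.0295). Ppara passed in C57BL/6J (0.57, adjusted p = 0.0428) and PWK/PhJ (0.62, adjusted p = 0.0438). In C57BL/6J on CD it was at 16.2 CPM in replicate 2 against 36.5 to 98.2 CPM in the other 7 mice, and without that replicate it did not pass (0.32, adjusted p = 0.234). In PWK/PhJ it did not pass without CD replicate 3 (0.60, adjusted p = 0.0693) or without WD replicate 2 (0.57, adjusted p = 0.0853).

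The enzymes that act beside and after Cyp4a in omega-oxidation were a list of 15, of which Acsl1 and Ehhadh are also PPARA targets. On WD, DBA/2J and 129S1/SvImJ each had 4 higher and 0 lower, and A/J had 2 higher and 0 lower. C57BL/6J and WSB/EiJ each had 3 higher and 1 lower, CAST/EiJ had 3 of each, and PWK/PhJ had 2 higher and 3 lower, with medians of −0.14 to 0.11. These counts stand beside the all-gene shares given for the PPARA targets, and without C57BL/6J CD replicate 2 that strain had 3 higher and 2 lower. PWK/PhJ had 2 higher and 4 lower without CD replicate 3, where 29.3% of all genes passed in either direction. It had 1 higher and 2 lower without WD replicate 2 (25.4%). WSB/EiJ had 3 higher and 0 lower without WD replicate 4 (8.8%). Aldh3a2, the fatty aldehyde dehydrogenase, rose in 6 strains, by 0.96 in C57BL/6J to 2.01 in DBA/2J, CAST/EiJ not among them. In CAST/EiJ, Abcd3, a peroxisomal transporter of fatty acids, fell by 0.71 (adjusted p = 0.000724) and Adh4, an alcohol dehydrogenase, rose by 0.63 (adjusted p = 0.000260). Of 15 other Cyp4 genes, 11 were tested. Cyp4f18, which hydroxylates leukotriene B4 in leukocytes, rose by a log2 value of 2.74 in PWK/PhJ, by 2.29 in 129S1/SvImJ and by 1.44 in C57BL/6J. The summed level of 8 leukocyte markers was 7.53 to 12.4 CPM on CD and 19.8 to 32.6 CPM on WD in 129S1/SvImJ, with no overlap. It was 8.62 to 18.4 CPM and 17.0 to 34.5 CPM in PWK/PhJ, and 15.5 to 44.7 CPM and 29.1 to 60.7 CPM in C57BL/6J, where the diets overlapped. Its part was not tested. Cyp4f13 fell slightly in the same 3 strains and in DBA/2J, by 0.26 to 0.42. Within the cluster, Cyp4a29 had at most 2 reads in any mouse, and Cyp4a30b had 12 to 79 reads in CAST/EiJ and at most 7 in any other strain.

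Because Cyp4a12a and Cyp4a12b are known for higher levels in males, 14 male-biased and 17 female-biased liver genes were counted beside them, 1 of which, Acot3, is also a PPARA target. Of the 14 male-biased genes, 4 rose in C57BL/6J, where 14.3% of all genes were higher, and 2 in 129S1/SvImJ (14.5%). In WSB/EiJ (4.97%) and CAST/EiJ (9.77%) 2 each rose, and 1 rose in PWK/PhJ (15.1%). In all of these strains 0 were lower. A/J had 3 lower (4.64% of all genes) and DBA/2J 1 lower (7.77%), with 0 higher. Their median log2 fold change was 0.58 in WSB/EiJ, 0.25 in C57BL/6J, 0.21 in CAST/EiJ, 0.12 in PWK/PhJ, −0.29 in 129S1/SvImJ, −0.43 in DBA/2J and −0.80 in A/J. Without WSB/EiJ WD replicate 4, 5 of them rose in that strain, where 8.8% of all genes passed in either direction. Female-biased genes fell in 12 of 17 cases in PWK/PhJ, with a median of −2.38, where 14.5% of all genes were lower. The count was 12 also without CD replicate 3 and without WD replicate 2. In CAST/EiJ they were 1 higher and 4 lower, where 9.77% of all genes were higher and 9.73% lower. The other 5 strains had at most 2 in either direction, beside the all-gene shares given for the PPARA targets. Without C57BL/6J CD replicate 2, 2 male-biased genes were higher and 3 lower in that strain, with a median of −0.27. In that fit 30.1% of all genes passed in either direction. That replicate had Hsd3b5, a male-biased steroid dehydrogenase, at 0.118 CPM against 6.44 to 187 CPM in the other 7 mice on CD, and Cyp2b9, a female-biased P450, at 183 CPM against 0.147 to 26.8 CPM. Among 12 genes of growth hormone and androgen signalling, 11 tested, at most 4 rose and 2 fell in a strain, both in 129S1/SvImJ. In that strain 14.5% of all genes were higher and 13.6% lower.

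Markers of other cells also moved with the diet. Of 8 hepatocyte markers, 2 to 6 fell in each strain and 0 rose, with medians of −0.45 to −0.19. Of all genes, 3.97% (WSB/EiJ) to 14.5% (PWK/PhJ) were lower in a strain. In CAST/EiJ their summed level was 103740 to 119211 CPM on CD and 73984 to 92103 CPM on WD, and the median log2 fold change of the markers was −0.23, beside −3.37, −3.07 and −1.98 for Cyp4a10, Cyp4a31 and Cyp4a32. In 129S1/SvImJ, 4 of 7 Kupffer cell markers, 6 of 8 leukocyte markers and 3 of 7 stellate cell markers rose. So did 2 of 6 endothelial cell markers and 1 of 6 cholangiocyte markers, where 14.5% of all genes were higher. In this strain 1 stellate cell and 1 endothelial cell marker fell (13.6% of all genes), while Cyp4a12b rose too. In CAST/EiJ, 1 of 7 Kupffer cell markers and 1 of 6 cholangiocyte markers rose, where 9.77% of all genes were higher and 9.73% lower. No leukocyte, stellate cell, endothelial cell, exocrine pancreas or adipocyte marker passed there in either direction. Exocrine pancreas markers summed to 1.00 to 1182 CPM over the 93 mice and adipocyte markers to 0.0208 to 38.8 CPM. The part of these cells in the results on the members was not tested.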

How the data were processed

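Liver RNA of 93 mice was sequenced by the authors, who prepared libraries with the SMARTER kit and mapped reads with STAR (2.7.1a, GRCm38 in the submitters' processing notes). They deposited raw counts of reads per gene, with no normalization, and 4 summary lines, which were kept out of the fits and gave the shares of unmapped reads. The strand setting and the annotation release are not given in the sources used here. Coordinates, exons, and symbols came from a GENCODE annotation of GRCm38, and the promoter from RefSeq (GRCm38.p6).

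Depth was 40020424 to 49894856 reads on genes. The fits used limma 3.58.1 and edgeR 4.0.16 under R 4.3.3, on the 19110 genes that filterByExpr retained at a minimum count of 10. Voom was fitted once on TMM-scaled counts with a mean for each of 14 groups, two-sided tests were adjusted by Benjamini–Hochberg over all 19110 genes per contrast, and calls were made below 0.05. Every adjusted p comes from limma-voom unless edgeR or DESeq2 is named. Levels are TMM-scaled CPM, except summed marker levels, which were not scaled by TMM. Correlations used log2 CPM with a prior count of 2. Mice are the replicates, and p-values measure the spread between them. No 2 libraries held identical counts. The members and lists were chosen with earlier results of these data known. All 6 members were named in every group; from each list the genes with the largest increase and decrease past the threshold, with Ppara, Ehhadh, Vnn1, Pdk4, and Fgf21 always (some genes this rule names are not reported here); and the 3 genes with the highest r to each member. Ddx3y, Hsd3b5, Cyp2b9, Cyp4a29, Cyp4a30b, and the values of Pdk4, Acot1, and Ehhadh in single CAST/EiJ mice were added after their values were seen.

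Alternatives were edgeR's quasi-likelihood test, DESeq2 1.42.0, upper-quartile normalization, library size alone, sample quality weights, fitting each strain separately, RNA integrity number (RIN) or cohort nested in strain as covariates, keeping all genes with any count or only those with 10 counts in each mouse, and leaving out each of the 93 mice. Sums, lists, and levels without 4 single libraries, low for male-biased genes, were added after seeing the data. Scripts were tested on simulated data.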

Additional observations from a re-analysis of the deposited data

Results flagged for a closer look

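In 5 of the 84 combinations of member and group, which lay in 3 groups, the highest or lowest mouse was far from the rest of its group, which chance gives in about 1 in 20. Cyp4a12a was at 512 CPM in DBA/2J WD replicate 3, below the next mouse at 677 CPM. Cyp4a12b was at 190 CPM in DBA/2J WD replicate 5, above the next at 116 CPM, and Cyp4a32 at 177 CPM in DBA/2J WD replicate 1, above the next at 111 CPM. Cyp4a14 was at 50.4 CPM in WSB/EiJ WD replicate 1, with the next at 21.0 CPM. Cyp4a31 was at 32.2 CPM in C57BL/6J WD replicate 3, with the next at 14.7 CPM.

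The diet effect differed between the strains for 4 members, with limma-voom adjusted p-values of 1.55e-05 for Cyp4a12b, 0.00246 for Cyp4a10, 0.000822 for Cyp4a31 and 0.00957 for Cyp4a32. Single strains stood out from the mean of the other 6 by log2 values of 1.97 for Cyp4a12b in 129S1/SvImJ, −3.44 for Cyp4a10 and −1.24 for Cyp4a32 in CAST/EiJ, and 1.69 for Cyp4a31 in PWK/PhJ.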

How the results depend on the processing

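No paired analysis was possible because replicate numbers only name mice within a group and no label pairs mice across the diets. Of the 42 diet effects (6 members in 7 strains), none changed its call with cohort within strain or RIN as a covariate, nor did any of the 35 that could be tested with at least 10 counts in every mouse. The count of members past the threshold was 4 in C57BL/6J and ranged from 2 to 4 when single mice were left out, the 2 being without CD replicate 2, where Cyp4a12a (adjusted p = 0.0645) and Cyp4a12b (adjusted p = 0.0583) were lost. DBA/2J had 1, and 2 with edgeR and 3 with DESeq2. A/J had 0, and 1 with DESeq2, 2 in a separate fit and 2 with quality weights. 129S1/SvImJ had 1, and 2 with DESeq2, with any count, in a separate fit and with quality weights. WSB/EiJ had 1, and 2 with edgeR and with DESeq2. PWK/PhJ had 0, and 1, Cyp4a12a, with upper-quartile normalization, library size alone, any count or quality weights, and 0 to 1 when single mice were left out, the 1 being without CD replicate 2, 4 or 5. Without CD replicate 3, Cyp4a12a in PWK/PhJ dropped to 0.54 (adjusted p = 0.280). Cyp4a14 in DBA/2J reversed, from a log2 fold change of 0.09 to −2.04 with DESeq2 (adjusted p = 0.0387). Calls of single members were also lost in a separate fit (Cyp4a12a and Cyp4a12b in C57BL/6J, and Cyp4a31 in CAST/EiJ at an adjusted p of 0.0584), for Cyp4a32 in C57BL/6J with any count (41553 genes tested), and for Cyp4a12b in C57BL/6J with quality weights. Among the values without 4 single libraries that were chosen after seeing the data, the sums kept their calls, and the diet effect on Cyp4a12b in WSB/EiJ against the other strains passed (2.10, adjusted p = 0.00605). The causes of these changes were not tested. With library size alone, the median over all genes moved by up to 0.158 on the log2 scale. Cyp4a14 in CAST/EiJ on WD rests on 8 to 32 reads per mouse, which limits its fold change.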
